A study of Homo sapiens with 6 samples.

Results

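The enzymes of haem synthesis, ALAS1, ALAS2, ALAD, UROS, UROD, CPOX, PPOX and FECH, were examined together with BLVRB in K562 cells sensitive or resistant to methotrexate (MTX). They are 9 of the 19775 genes that probe sets of the array name singly, and their 19 probe sets are all those among 54675 whose platform annotation names a member. A probe set is a group of short oligonucleotides that read the transcripts of a gene. BLVRB is not an enzyme of haem synthesis. It encodes biliverdin reductase B (flavin reductase), which acts on the products of haem breakdown.

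Haem is the iron-containing ring that binds oxygen in haemoglobin and carries electrons in cytochromes. Its synthesis opens in the mitochondrion, where an aminolevulinate synthase joins glycine to succinyl-CoA, goes on in the cytosol, and closes in the mitochondrion, where FECH inserts iron. The first step has a housekeeping enzyme, ALAS1, and an erythroid one, ALAS2. Haemoglobinised cells draw on this pathway most heavily, and K562, an established chronic myeloid leukaemia line with erythroid features, makes embryonic and fetal haemoglobins.

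Total RNA was hybridised to 6 arrays, 3 of parental K562 cells, which are sensitive to MTX, and 3 of resistant K562 cells, which were selected by stepwise exposure and grow at 10e-5 M MTX as the labels write the dose. The parental cells were kept in Ham's F12 with fetal bovine serum, and the resistant cells in a medium free of glycine, hypoxanthine and thymidine with dialysed serum, so resistance and medium, including the glycine that ALAS uses, cannot be told apart. The sources do not say whether the resistant line is 1 clone, nor that the arrays came from separate cultures, so p-values measure the spread between these samples, which may be technical.

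Levels are given as multiples of the median signal of the array, written as array medians, and a level near 1 is dim. The median signals were 10.2 to 14.3. Parental 1 stood apart, with Spearman correlations of 0.889 and 0.899 with the other parental arrays, which correlated at 0.969 with each other (across probe sets, which are not replicates). Of 10 erythroid markers 7 had a probe set naming that gene alone, and 6 of these were at or above the array median in every array. Their summed level was 1600 to 1637 array medians in the parental arrays and 1024 to 1215 in the resistant arrays. The embryonic globin HBE1, 1 of these 7, made up the whole of that difference, with at most 670 array medians in parental arrays and at most 73.8 in resistant ones. Without HBE1, a sum added after the values were seen, the other 6 markers came to 929.3, 1075 and 1033 in parental arrays 1 to 3 and to 1141, 950.6 and 1041 in resistant arrays 1 to 3, which overlap. Most of that sum was HBZ, at 551 to 714, and TFRC, at 230 to 306, so it says little of the dimmer markers. HBZ, another embryonic globin, had a log2 difference of 0.13 (limma adjusted p = 0.760) and KLF1, an erythroid transcription factor, 0.56 (adjusted p = 0.600). The markers AHSP, GATA1, TFRC and EPOR had differences below 0 by every tested probe set, and none of these was called. AHSP stood at 1.97, 11.7 and 9.84 array medians in the parental arrays and 0.0488, 1.54 and 0.225 in the resistant arrays, without overlap. Its log2 difference was -4.57 (adjusted p = 0.139). GATA1 had -0.64 and -0.82, TFRC -0.54 to -0.09 and EPOR -0.57 to -0.29. Of 12 measured epithelial markers 3 were at or above the median in every array, and their summed level was 653.8 in parental 1 against 342.8 and 275.2 in parental 2 and 3 and 225.1 to 308.7 in the resistant arrays. Of 8 fibroblast and bone matrix markers 2 reached the median in every array, with sums of 40.75 to 52.15 in the parental arrays and 13.94 to 24.81 in the resistant arrays, and of 6 megakaryocyte markers 2 did, with sums of 11.98 to 36.53 and 6.088 to 7.024. The marker probe sets called were all lower in resistant cells, where 1.14% of all tested probe sets were called lower. They were HBE1 by 205919_at (log2 difference -3.35, limma adjusted p = 0.00562), ITGA2B by 206494_s_at (-5.58, adjusted p = 0.0186) and SPARC by 212667_at (-1.88, adjusted p = 0.0447). The other tested probe sets of ITGA2B (megakaryocyte) and SPARC (matrix) were also below 0 but not called (adjusted p = 0.0916 and 0.143, and 0.0744). The part of these markers in the results that follow was not tested.

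No member differed between resistant and parental cells by the criterion used, an adjusted p under 0.05 in limma and a fold of at least 2. Of the 19 probe sets 0 were called higher and 0 lower, where 2.33% of all 26692 tested probe sets were called (1.20% higher and 1.14% lower). The methods' t-test also called 0 of the 19. Without parental 1 limma again called 0 of the 19, where 4.06% of all probe sets tested were called (2.38% higher and 1.68% lower). At an unadjusted p under 0.05 in limma there were 2 of the 19, those of BLVRB and of UROD by 208971_at, both lower in resistant cells, where 18.7% of all tested probe sets reached that level. The 3 arrays of one group lay beyond the 3 of the other for 5 of the 19, all lower in resistant cells, where 12.3% of all tested probe sets did so in that direction and 27.2% in either. The log2 differences ran from -1.33 for BLVRB to 1.07 for the dim probe set of ALAS2, 9 were below 0 and 10 above it, and their median was 0.01, against 0.026 over all tested probe sets. With 3 arrays a group these counts do not show that the enzymes stayed level, and each interval below gives the differences that the arrays allow. Of the 19 probe sets, 4 had a 95% interval inside 1 log2 unit of 0 on either side.

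**Figure D1:**
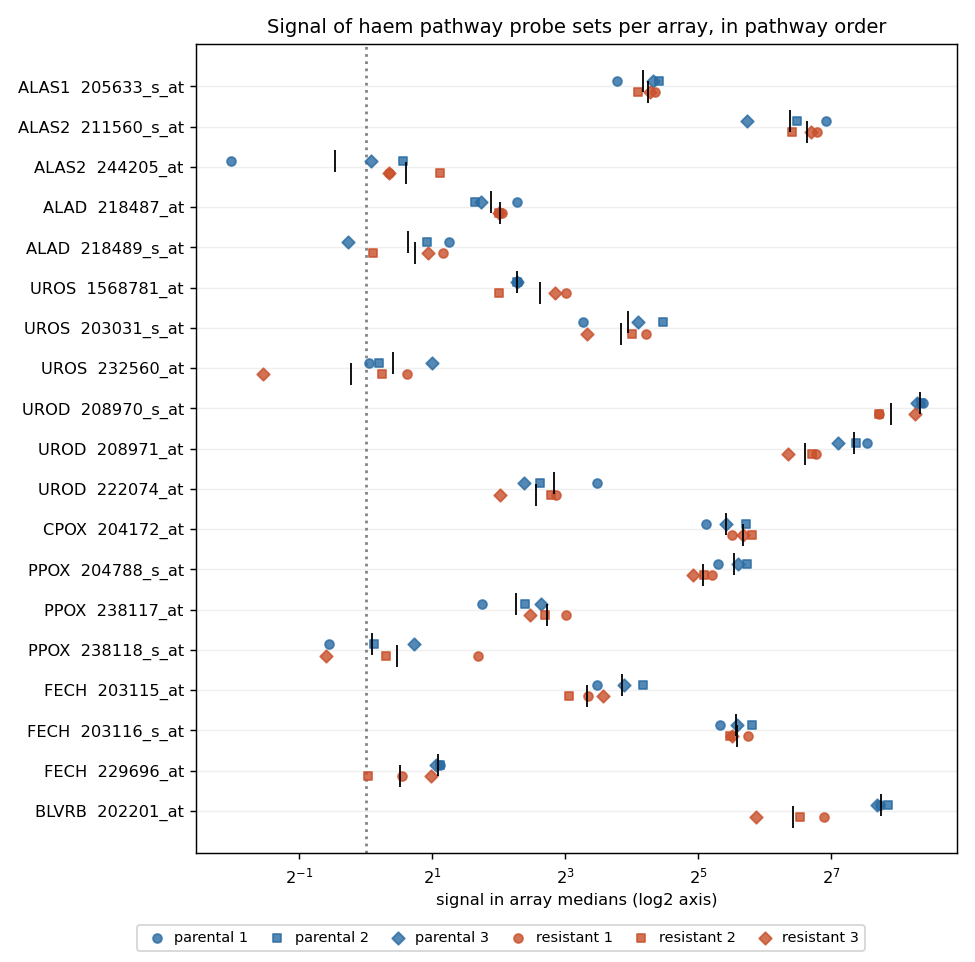
Levels of the 19 probe sets in pathway order, as signal over array median (horizontal log2 axis); points are arrays (blue parental, orange resistant, with circle, square and diamond for arrays 1, 2 and 3), vertical marks the mean log2 level of each group, and the dotted line the array median. The resistant arrays of BLVRB, at 58.8 to 119, lie below its parental arrays, at 206 to 231, while the arrays of ALAS1, ALAS2, ALAD, UROS and CPOX overlap.

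At the entry to the pathway neither synthase differed beyond the spread of the arrays. ALAS1 stood at 13.8, 21.4 and 20.1 array medians in the parental arrays 1 to 3 and at 20.4, 17.1 and 19.4 in the resistant arrays 1 to 3. Its log2 difference, resistant minus parental, was 0.06 (95% interval -0.53 to 0.66; limma adjusted p = 0.914). The groups overlapped, and parental 1 was the lowest of the 6 arrays.

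ALAS2 by 211560_s_at stood at 122, 89.4 and 53.1 array medians in the parental arrays and at 111, 85.0 and 104 in the resistant arrays. The parental arrays spread on both sides of the resistant ones, with a mean of 88.3 ± 34.7 (SD, n = 3) against 99.8 ± 13.3. The log2 difference was 0.25 (95% interval -0.57 to 1.07; adjusted p = 0.738). It was 0.53 without parental 1 (adjusted p = 0.375) and -0.08 without parental 3, so that its sign turned without that array. The other probe set of ALAS2, 244205_at, lay close to the array median, at 0.245, 1.48 and 1.06 in the parental arrays and 1.28, 2.16 and 1.28 in the resistant arrays. Its log2 difference of 1.07 (95% interval -0.55 to 2.69; adjusted p = 0.443) was 0.29 without parental 1.

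The balance of both synthases was compared as the ratio of the ALAS2 signal by 211560_s_at to the ALAS1 signal within each array, which compares arrays and not amounts of the enzymes. That ratio was 8.89, 4.17 and 2.64 in the parental arrays and 5.41, 4.96 and 5.35 in the resistant arrays. The resistant arrays were close together and lay inside the parental range. The log2 ratio was 2.20 ± 0.884 (SD, n = 3) in the parental arrays and 2.39 ± 0.0682 in resistant cells, a difference of 0.18 before rounding (exact permutation test over arrays, two-sided, p = 0.70, where 3 arrays against 3 cannot go below 0.10). Leaving out parental 3 turned it to -0.22, and leaving out parental 1 gave 0.66. With the dim ALAS2 probe set 244205_at in place of 211560_s_at the difference was 1.01 (exact permutation test, p = 0.30).

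The start regions of both synthase genes are shown because they carry the letters by which the housekeeping and the erythroid gene are known to differ. RefSeq promoter windows on GRCh38.p14, from 250 bases before to 50 after a start, matched 8 of the 9 members in 10 windows, and UROS had none. They were searched on both strands for GATA boxes (AGATAA, or the same with T as its first base, G as its last base, or both), the motif of erythroid GATA factors, and for the palindromic site of the respiratory factor NRF1, and in the 50 bases after the start, on the gene's strand, for CAGTG. The 250 bases before the ALAS2 start, at chrX:55030978-55031227 on the minus strand, hold 1 GATA box, in capitals (TTATCT, the other strand of AGATAA), whose first base lies at -127 from the start:
ALAS2 upstream: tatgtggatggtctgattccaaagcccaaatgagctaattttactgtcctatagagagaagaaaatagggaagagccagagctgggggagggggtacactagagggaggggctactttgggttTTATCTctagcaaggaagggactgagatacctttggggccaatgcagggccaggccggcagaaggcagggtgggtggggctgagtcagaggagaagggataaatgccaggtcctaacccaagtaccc
After the start, at chrX:55030942-55030967 on the same strand, ALAS2 holds CAGTG, in capitals, from base 21. In the mRNA of ALAS2 the same letters form the loop of the iron-responsive element, through which iron regulatory proteins control translation, a step that an array of mRNA does not read:
ALAS2 leader: cgttcgtcctCAGTGcagggcaacag
ALAS1 holds 2 NRF1 sites, in capitals, starting at -9 and 22 from its start, at chr3:52198066-52198091 and chr3:52198096-52198121 on the plus strand:
ALAS1 first site: tacgcggcGCGCCTGCGCagaagaag
ALAS1 second site: cgcccaagGCGCATGCGCagcggtca
GATA boxes stood in 4 of the 10 member windows, against 25% of all 35116 windows, and NRF1 sites in 1 of 10, against 5.78%. CAGTG followed the start in 1 of 10, against 6.48%. A match of letters is a description and not a bound site.

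The other boxes belong to ALAD, CPOX and PPOX, and are given with the bases around them, the box in capitals. CPOX has 2, starting at -207 and -125 (chr3:98593803-98593828 and chr3:98593721-98593746, minus strand). PPOX has 1 in the second of its 2 windows, at -63 (chr1:161166573-161166598, plus strand), and ALAD 1 in 1 of its 2 windows, at -68 (chr9:113401173-113401198, minus strand):
CPOX first box: aaagcctcttTTATCTctcccgtccc
CPOX second box: cgtcggattcTTATCTcccgccccgc
PPOX box: ggtgtggcccTTATCTgcacccagca
ALAD box: ggatgcggggAGATAGcgggcctgga
No member probe set was called, of a gene with a GATA box or without, where 2.33% of all tested probe sets were. The calls therefore say nothing of the boxes. GATA1, the erythroid GATA factor, was itself uncalled. By 210446_at GATA1 stood at 41.8, 60.7 and 54.9 array medians in the parental arrays and 42.0, 26.5 and 22.5 in the resistant arrays (log2 difference -0.82, SE 0.307; adjusted p = 0.221), and its groups overlapped.

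In the cytosolic steps the values differed by enzyme. ALAD joins aminolevulinate molecules into the first pyrrole. By 218487_at ALAD stood at 4.82, 3.11 and 3.33 array medians in the parental arrays and 4.15, 4.01 and 4.02 in the resistant arrays, with a log2 difference of 0.14 (95% interval -0.44 to 0.72; adjusted p = 0.792). Its dimmer probe set 218489_s_at had a difference of 0.10 and a wider interval, -1.04 to 1.24. For both the resistant arrays lay inside the parental range.

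UROS closes the tetrapyrrole ring, and its 3 probe sets did not share a sign. By 203031_s_at UROS stood at 9.66, 22.2 and 17.1 array medians in the parental arrays and 18.5, 16.0 and 10 in the resistant arrays (log2 difference -0.10, 95% interval -1.04 to 0.84; adjusted p = 0.917). By 1568781_at UROS held 4.82 to 4.88 in the 3 parental arrays and 8.11, 4.0 and 7.17 in the resistant ones, a log2 difference of 0.34 (adjusted p = 0.589). Resistant 2 lay below the parental arrays there and the other resistant arrays above them. The third probe set, 232560_at, was dim (0.343 to 1.99) with a difference of -0.64 (adjusted p = 0.605) that was 0.02 without resistant 3.

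UROD, which trims the side chains of uroporphyrinogen, had the lowest log2 difference among the synthesis enzymes by 1 of its 3 probe sets, 208971_at, and not by the other 2. By 208971_at UROD stood at 186, 167 and 138 array medians in the parental arrays and at 109, 105 and 82.1 in the resistant arrays. Every resistant array was below every parental one. The log2 difference was -0.73 (SE 0.234, 95% interval -1.29 to -0.17; unadjusted p = 0.0184, limma adjusted p = 0.172), a signal 1.66-fold lower, which is under the fold required for a call.

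By 208970_s_at UROD stood at 334, 326 and 315 array medians in the parental arrays and at 212, 212 and 309 in the resistant arrays. The groups again did not overlap, but resistant 3 lay just under the parental arrays, whereas by 208971_at resistant 3 was the lowest. The log2 difference was -0.43 (95% interval -1.0 to 0.13; adjusted p = 0.376). The third probe set of UROD, 222074_at, was at 11.2, 6.17 and 5.19 in the parental arrays and 7.26, 6.93 and 4.04 in the resistant arrays, with a log2 difference of -0.27 that was 0.06 without parental 1. All 3 probe sets were below 0 with the 6 arrays, and for 208971_at the difference stayed between -0.93 and -0.60 over the 16 alternative settings, with adjusted p from 0.0431 to 0.464.

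The last steps run in the mitochondrion. CPOX, which makes protoporphyrinogen from coproporphyrinogen, stood at 34.6, 53.0 and 43.0 array medians in the parental arrays and 45.8, 56.3 and 51.4 in the resistant arrays. Its log2 difference was 0.25 (95% interval -0.33 to 0.83; adjusted p = 0.617), and it was 0.10 without parental 1, the lowest array.

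PPOX, which oxidises protoporphyrinogen to protoporphyrin, gave opposite signs by probe set. By 204788_s_at PPOX stood at 39.3, 53.1 and 48.8 array medians in the parental arrays and 37.0, 33.9 and 30.3 in the resistant arrays, without overlap (log2 difference -0.47, 95% interval -1.0 to 0.06; adjusted p = 0.315). By 238117_at it stood at 3.37, 5.28 and 6.19 in the parental arrays and 8.06, 6.50 and 5.57 in the resistant arrays, a difference of 0.47 (95% interval -0.26 to 1.19; adjusted p = 0.453) that was 0.21 without parental 1. The third, 238118_s_at, was dim, with 0.657 to 3.23 over the 6 arrays and a difference of 0.37.

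FECH, the ferrochelatase that completes haem, also differed by probe set. By 203116_s_at FECH was the most even of all the members, at 40.2, 56.3 and 48.0 array medians in the parental arrays and 53.8, 44.7 and 45.7 in the resistant arrays (log2 difference 0.01, 95% interval -0.53 to 0.55; adjusted p = 0.992). By 203115_at it stood at 11.2, 18.1 and 14.8 in the parental arrays and 10.2, 8.29 and 11.9 in the resistant arrays, a difference of -0.53 (adjusted p = 0.353) that was -0.71 without parental 1. Only resistant 3 there exceeded the lowest parental array. By 229696_at FECH was dim, at 2.07 to 2.16 in the parental arrays and 1.02 to 1.97 in the resistant arrays, which did not overlap (log2 difference -0.57, adjusted p = 0.339). The probe sets of 1 gene can read different transcript ends, and no rule here prefers one of them.

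**Figure D2:**
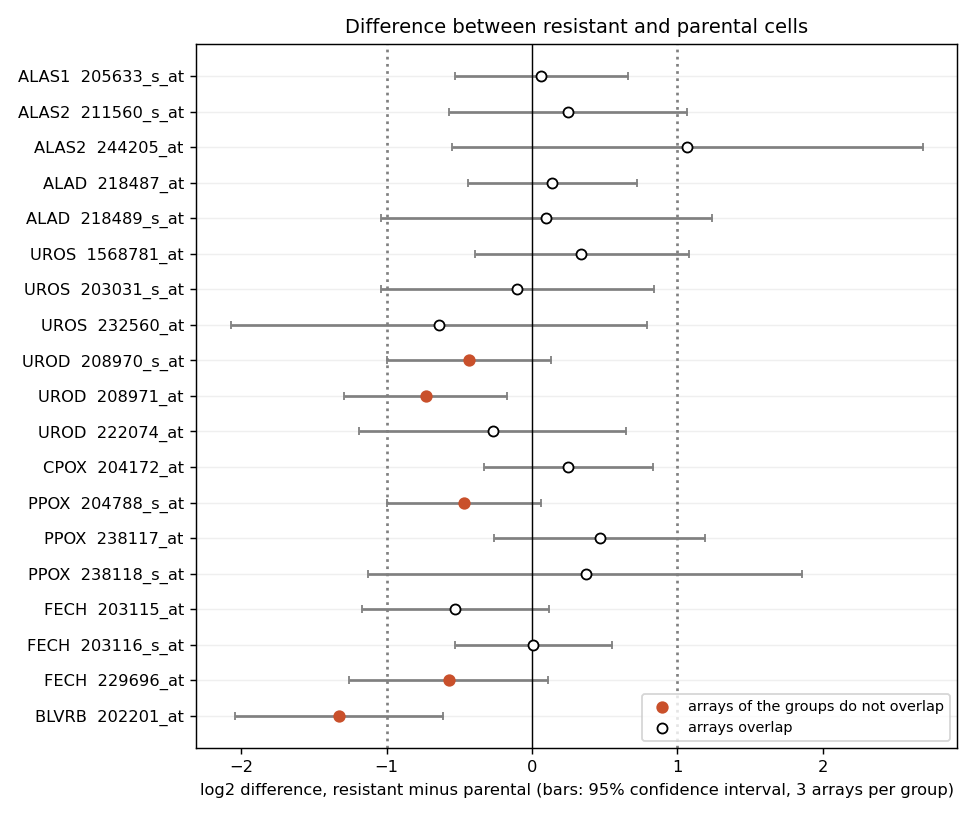
Differences in log2 level, resistant minus parental, for the 19 probe sets (points) with 95% confidence intervals from limma (bars, 3 arrays per group); filled points mark probe sets whose groups do not overlap, and dotted lines a fold of 2. The intervals of BLVRB (-2.04 to -0.61) and of UROD by 208971_at (-1.29 to -0.17) lie below 0, and the other 17 reach or cross it.

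BLVRB, on the breakdown side, had the largest difference of the 19 probe sets. It stood at 214, 231 and 206 array medians in the parental arrays and at 119, 92.4 and 58.8 in the resistant arrays. Each resistant array was below each parental one, and the resistant arrays spread more, with 89.9 ± 30.0 against 217 ± 12.7 (SD, n = 3). The log2 difference was -1.33 (SE 0.299, 95% interval -2.04 to -0.61), a signal 2.51-fold lower. The unadjusted p was 0.00347, a level that 4.11% of all tested probe sets reached, and the limma adjusted p was 0.0844, so BLVRB was not called. The erythroid marker sum was lower in the resistant arrays with HBE1 and overlapped between the groups without it, as given above. The sum without HBE1 is mostly HBZ and TFRC. Of the markers in it, HBZ and KLF1 had differences above 0 and AHSP, GATA1, TFRC and EPOR below 0.

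The call of BLVRB depended on the processing. It was called lower under 4 of 16 alternatives, with adjusted p of 0.0475 after scaling to the 75th percentile, 0.0472 with a filter at 2 array medians, 0.0267 with a pseudocount of 1 array median and 0.0116 with an intensity trend and robust prior. With no level filter the adjusted p was 0.280, and with the methods' t-test 0.173. Leaving out each array gave log2 differences of -1.56 to -1.05 and adjusted p of 0.10 to 0.25. It was -1.34 without parental 1 and -1.05 without resistant 3, and its sign was negative under all 16.

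**Figure D3:**
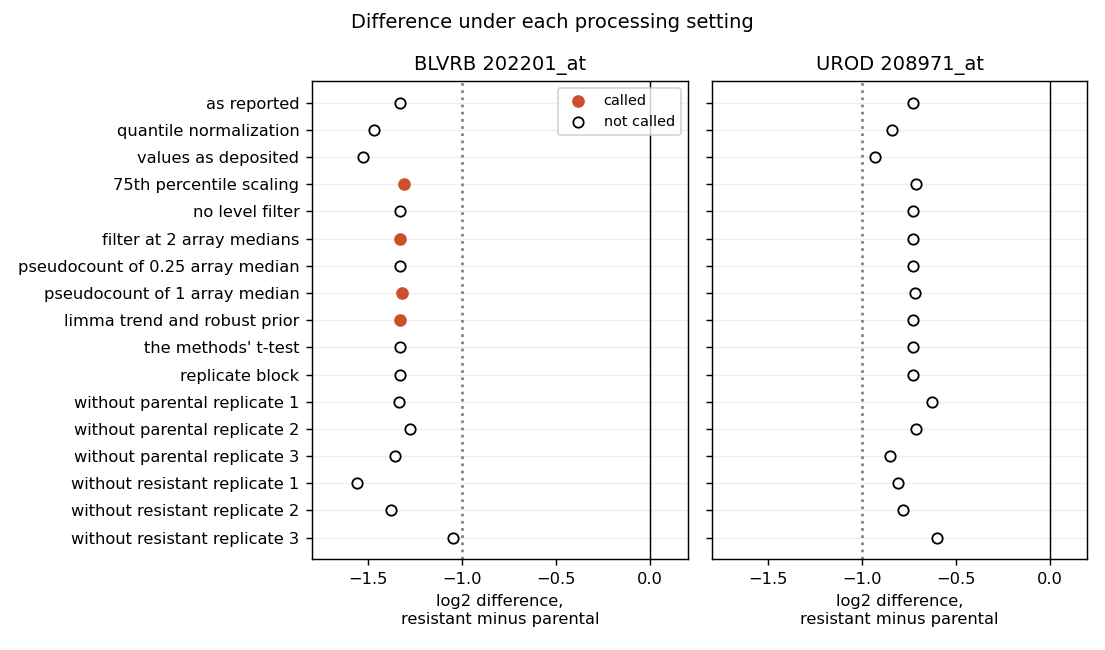
Differences in log2 level, resistant minus parental, for BLVRB and for UROD by 208971_at, as reported and under 16 alternative settings; filled points are called and the dotted line marks a fold of 2. BLVRB stays between -1.56 and -1.05 and is called under 4 settings, and UROD stays between -0.93 and -0.60 and is called under none.

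The 250 bases before the BLVRB start, at chr19:40465746-40465995 on the minus strand, are shown because BLVRB had the largest difference. They hold none of the letters of the GATA boxes or NRF1 sites, which says only that those letters are not in this stretch, and 67.2% of the bases are G or C, against 52.8% in the stretch of ALAS2:
BLVRB upstream: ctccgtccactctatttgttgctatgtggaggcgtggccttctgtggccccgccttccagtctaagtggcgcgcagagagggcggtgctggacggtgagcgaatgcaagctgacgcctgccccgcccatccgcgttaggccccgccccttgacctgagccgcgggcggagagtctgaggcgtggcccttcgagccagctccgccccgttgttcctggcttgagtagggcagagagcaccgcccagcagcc
Over the 6 arrays, the 3 genes most like BLVRB of 11809 were FBXO6, SLC27A5 and TNNT1, by the root mean square difference of log2 levels centred on their means, 0.0795, 0.105 and 0.122 against a spread of 0.729 in BLVRB itself. FBXO6, a subunit of a ubiquitin ligase, stood at 20.1, 22.0 and 17.6 array medians in the parental arrays and 9.82, 7.71 and 5.33 in the resistant arrays. The 3 genes most like ALAS2 were ZNF318, ZNF33B and ERMARD, at 0.0997, 0.119 and 0.121 against a spread of 0.39 in ALAS2. These likenesses describe 6 arrays and were picked from all 11809 genes.

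The other genes that supply, move, sense, use and degrade haem were read from a list of 38, of which 33 had a probe set naming that gene alone and 32 had 1 that passed the level filter. Of their 67 tested probe sets 0 were called in either direction in limma or by the methods' t-test, and 14 had an unadjusted p under 0.05, beside the 18.7% of all tested probe sets at that level. Their median log2 difference was 0.18, with 22 below 0 and 45 above it. The groups did not overlap for 14 that were higher in resistant cells, where 14.9% of all tested probe sets were, and for 4 that were lower, where 12.3% were. By role, the median was 0.34 over 28 probe sets of transport (19 above 0 and 9 below), 0.35 over 13 of substrate supply (10 and 3), 0.20 over 5 of degradation (4 and 1), 0.09 over 8 of haem use (5 and 3) and 0.00 over 13 of regulation (7 and 6).

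SLC46A1, a proton-coupled carrier of folate that has also been described as a haem carrier, had the smallest adjusted p of the list, by 1558703_at. That probe set stood at 1.31, 2.94 and 1.15 array medians in the parental arrays and 5.93, 5.74 and 7.49 in the resistant arrays, without overlap (log2 difference 1.95, SE 0.39; adjusted p = 0.0641). It was called higher under 5 alternatives, at adjusted p of 0.018 to 0.039. The other tested probe sets of SLC46A1 had differences of 0.42 and 0.02 and overlapped, so the 3 disagree.

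SLC25A38, the mitochondrial glycine importer that feeds ALAS, was at 15.1, 16.5 and 15.9 array medians in the parental arrays and 26.6, 20.3 and 21.9 in the resistant arrays, without overlap (log2 difference 0.53, adjusted p = 0.245). SLC25A37, mitoferrin, which brings iron to FECH, had 10 tested probe sets with log2 differences from -0.56 to 0.85. The highest, 242335_at, stood at 7.80, 11.2 and 8.23 in the parental arrays and 15.6, 16.2 and 16.7 in the resistant arrays (adjusted p = 0.121). SLC25A39, a mitochondrial glutathione carrier needed for haem synthesis, was lower in each resistant array, at 45.9, 43.2 and 35.7 against 33.3, 23.2 and 13.6 (log2 difference -0.92, adjusted p = 0.237).

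SHMT2, which makes glycine from serine in the mitochondrion, had log2 differences above 0 by all 3 probe sets and no overlap by 214095_at and 214096_s_at. By 214095_at SHMT2 stood at 14.4, 17.7 and 15.6 against 27.5, 21.6 and 27.4 array medians (log2 difference 0.68, adjusted p = 0.173). COX10, which takes a step in turning haem into the haem of cytochrome oxidase, had a difference of 0.81 by 203858_s_at (11.2 ± 0.499 against 19.9 ± 4.21 array medians, SD, n = 3; adjusted p = 0.139) and of -0.09 by a dim probe set.

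BACH1, a repressor that is released by haem, stood at 25.4, 25.5 and 21.8 array medians in the parental arrays and 13.0, 10.5 and 16.2 in the resistant arrays by 204194_at, without overlap (log2 difference -0.89, adjusted p = 0.123). Its dim probe set 234315_at overlapped between the groups, with a difference of 0.14 (adjusted p = 0.832). SLC48A1, a haem exporter of endosomes, had a difference of -0.91 by 218417_s_at (adjusted p = 0.143) and was called lower without parental 1 (-1.14, adjusted p = 0.0468). By 48106_at SLC48A1 had -0.70 with overlap (adjusted p = 0.337). Its dim 218416_s_at had 0.56, which was 0.06 without parental 1. FLVCR2, a transporter of the haem exporter family, was dim, at 1.57 to 1.80 in the parental arrays and 1.07 to 1.18 in the resistant arrays (log2 difference -0.57, adjusted p = 0.192).

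On the breakdown side, HMOX1, the inducible haem oxygenase, lay under the level filter, at 0.0992 to 1.16 array medians in the parental arrays and 0.0686 to 0.168 in the resistant arrays, and was not tested. HMOX2, the constitutive oxygenase, had log2 differences of 0.02 and 0.36 by its 2 probe sets (adjusted p = 0.981 and 0.437). BLVRA, the other biliverdin reductase, stood at 12.3, 45.7 and 43.0 in the parental arrays and 32.0, 30.6 and 37.8 in the resistant arrays by 211729_x_at, with parental 1 far below the rest. Its 3 tested probe sets had differences of 0.79, 0.20 and -0.28, and without parental 1 the last, 203773_x_at, had -0.98 (adjusted p = 0.0696). Whether the difference of BLVRB differed from that of BLVRA was not tested.

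**Figure D4:**
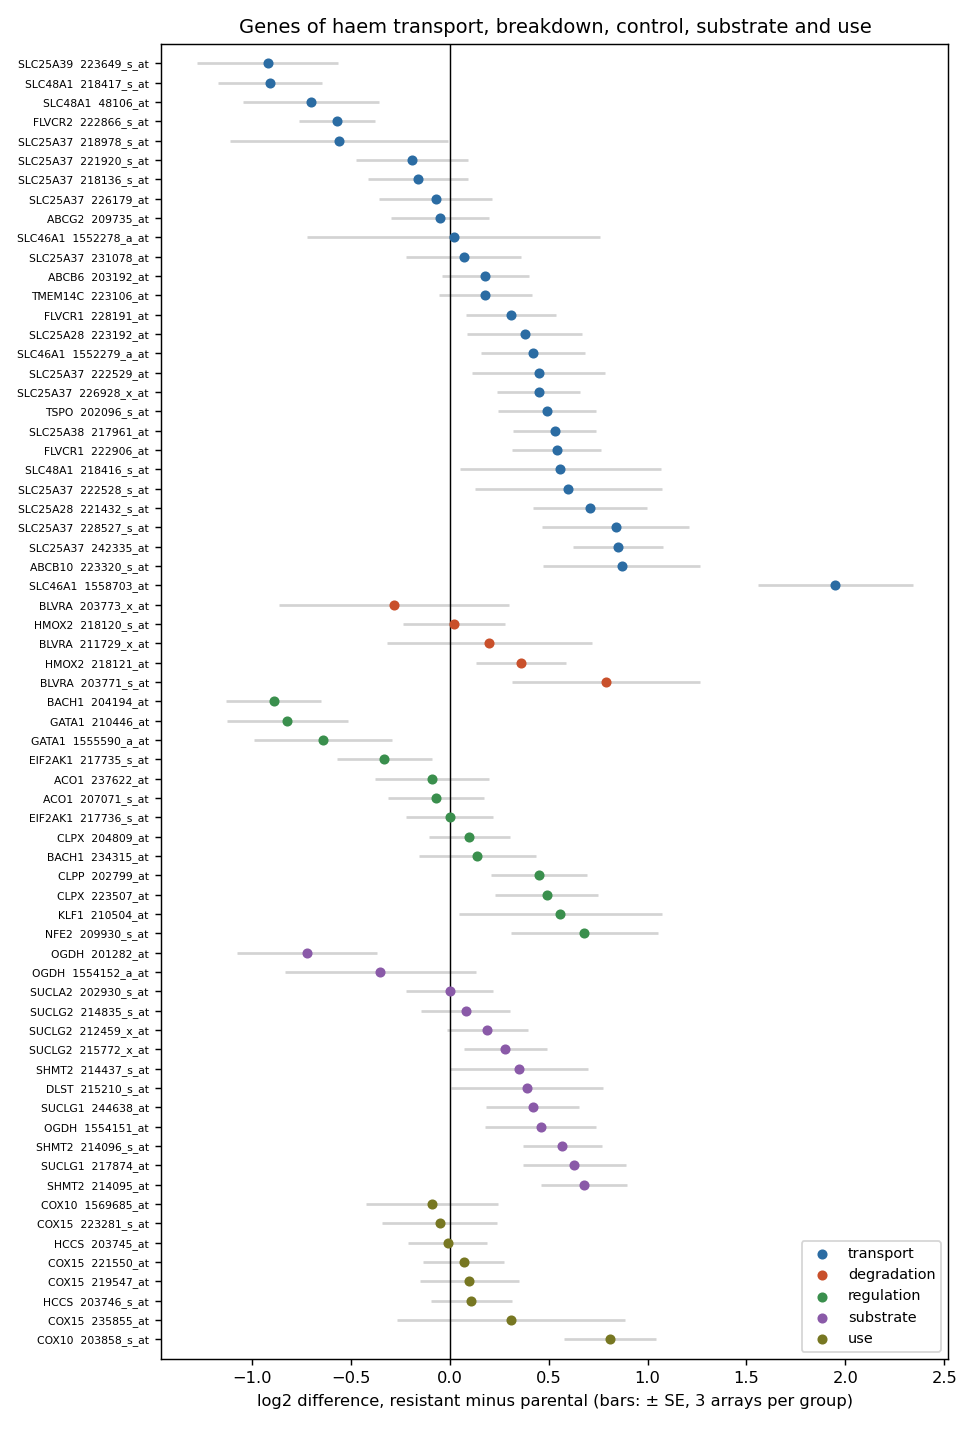
Differences in log2 level, resistant minus parental (points; bars are ± SE, 3 arrays per group), for the 67 tested probe sets of related genes, grouped by role and sorted within each. Values run from -0.92 for SLC25A39 to 1.95 for 1 probe set of SLC46A1, and none was called.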

How the data were processed

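RNA of 3 parental and 3 resistant K562 samples was hybridised to Affymetrix HG U133 PLUS 2.0 arrays. The deposited values are intensities, 1 linear signal per probe set, made by the authors with MAS5. Each signal was set relative to the array's median, values under 0.01 of it were raised to 0.01, and log2 was taken. The 62 control probe sets and those averaging under 1 array median were left out, leaving 26692. Groups were compared with limma 3.58.1 in R 4.3.3 (lmFit and eBayes, two-sided, Benjamini-Hochberg over all tested probe sets). The fit was also run on simulated normal data whose changes were larger than any member difference. That run does not bear on differences of the members' size. A fold is 2 to the power of a log2 difference.

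Platform annotation named 1 gene for 41097 probe sets, several for 1801 and none for 11777. Likeness used the probe set of each gene with the highest mean log2 level. Named were all members, the 8 related genes with the smallest adjusted p, and the 3 genes most like ALAS2 and BLVRB; SLC25A38, SLC25A39, HMOX1, HMOX2 and BLVRA were added for their roles after their values were seen. Alternatives were other scalings, filters, pseudocounts and tests, a replicate block, and leaving out each array. Members, lists and tests were chosen with earlier results of these data known. The number of arrays limits the precision.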

Additional observations from a re-analysis of the deposited data

How the results depend on the processing

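Of 299 recomputed differences of member probe sets 278 kept their sign and their side of the threshold, 4 became calls (BLVRB) and 17 turned their sign, each of a value with an adjusted p of 0.605 or more in the main setting. Called probe sets over the whole table, 319 higher and 303 lower, were 210 higher with values as deposited (where the median of all tested probe sets was -0.174), 97 and 77 with no level filter, 599 and 592 with a pseudocount of 1 array median, 455 lower with a pseudocount of 0.25, 563 and 570 with trend and robust prior, 82 and 44 with the methods' t-test, and 103 to 633 and 79 to 447 without 1 array each. Among members 1 probe set was called lower with 75th percentile scaling, a filter at 2 array medians, a pseudocount of 1, or trend and robust prior. Among related genes 1 was called higher with that filter, a pseudocount of 0.25 or 1, or trend and robust prior, and 0 to 1 higher and 0 to 1 lower without 1 array. With values as deposited ALAS1 had -0.14, ALAD -0.06 (218487_at) and -0.10 (218489_s_at), and FECH by 203116_s_at -0.19, which had -0.08 after quantile normalization. Without 1 array the ranges were -0.13 to 0.19 for ALAS1, -0.08 to 0.53 for ALAS2 by 211560_s_at, -0.36 to 0.41 for ALAD by 218489_s_at, -0.44 to 0.16 for UROS by 203031_s_at and -1.06 to 0.02 by 232560_at, -0.50 to 0.06 for UROD by 222074_at, -0.25 to 0.90 for PPOX by 238118_s_at, -0.12 to 0.13 for FECH by 203116_s_at, and -0.22 to 0.66 for the ratio of ALAS2 to ALAS1. The causes were not tested, beyond the fewer arrays or probe sets themselves.

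With the replicate number as a block there were 133 calls higher and 136 lower, 0 among the members, and BLVRB had an adjusted p of 0.157. Deviations of parental and resistant arrays correlated at -0.0253 to 0.0253, and 0 of 3 parental arrays deviated most like the resistant array of its number, so the arrays share only a number.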

Other observations

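The genes around each member, the 10 tested genes on each side in chromosome order, were read after the values above were seen, as a description. Around BLVRB on chromosome 19 the median log2 difference of the 20 neighbours was -0.64, with 13 below 0 and 1 called. Over all tested probe sets 48.0% were below 0 and 2.33% were called. Around PPOX on chromosome 1 it was -0.45, with 16 of 20 below 0 and 2 called. Around ALAS2 9 of 20 were below 0 and 2 were called, around CPOX 10 and 1, and around UROD 12 and 0. Around ALAS1, ALAD, UROS and FECH 5 to 9 of 20 were below 0 and 0 were called. Around the other 7 members the medians ran from -0.09 (UROD) to 0.33 (UROS), against 0.026 over all tested probe sets. Of the 3 genes most like BLVRB, SLC27A5 and TNNT1 are also on chromosome 19, and the nearest, FBXO6, is on chromosome 1. The share of all ranked genes that lie on chromosome 19 was not counted.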
